A study of Mus musculus with 4 samples.

Results

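The lymphocyte genes Il2ra, Gata3, Tnfsf11, Ccr8, Ccr4, Cxcr6, Icos, Il1rl1, Areg and Cd40lg were followed in the mRNA of CD11b+Ly6g+ myeloid-derived suppressor cells (MDSCs) sorted from mouse lungs. They are 10 of the 54532 genes counted. They were chosen on the measured values: Il2ra, Gata3, Tnfsf11, Ccr8, Cxcr6 and Ccr4 for their high ratio of the FR17 library to the control library, and the other 4 as genes known from the same cells. The ratio of FR17 to control is therefore given only as a description. C57BL/6 mice aged 6 to 8 weeks received MCM, the medium conditioned by B16F10 melanoma cells, by intraperitoneal injection at 300 μL for 10 days and B16F10 cells by tail vein on day 7, and lungs were taken on day 10. All 4 groups carried this pre-metastatic niche (PMN) model, so the control (Ctrl) was the untreated model and not a healthy lung. The TP5 group received free thymopentin, a short immunomodulatory peptide. The FR17 group received TP5 carried on a peptide that MMP2 cleaves and that then assembles, and the sFD17 group the same design with the TP5 sequence scrambled, which assembles without TP5 activity. The peptides were injected under the skin each day, starting on day 3, at a dose of 40 μM/kg. Each group was 1 library of cells pooled from 10 to 12 mice, so no difference below has a replicate check and no p-value was computed.

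CD4 T helper 2 cells, regulatory T cells and group 2 innate lymphoid cells (ILC2) share much of this set. GATA3 is the transcription factor that sets type 2 identity and acts on the genes of the IL-33 receptor (Il1rl1, ST2) and of type 2 cytokines. IL-2 through its high-affinity receptor chain CD25 (Il2ra), and IL-33 through ST2, drive expansion and activation of these cells, which enter tissue through chemokine receptors such as CCR4, CCR8 and CXCR6 and release amphiregulin (Areg), a growth factor for epithelium. Several of the genes are not lymphoid alone: ST2 is also a receptor of mast cells, basophils and eosinophils, and amphiregulin is made by myeloid and epithelial cells. The sort gate, CD11b with Ly6G, is that of granulocytic myeloid cells and would not be set for lymphocytes.

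The promoters are shown first, because GATA3 is itself 1 of the 10 genes and Il1rl1 is a classical gene with GATA elements. RefSeq promoter windows on GRCm38.p6, the build of the files, were matched for 8 of the 10 genes, in 9 windows since Il1rl1 has a pair; Icos and Cd40lg had no entry. The GATA motif, the letters GATA with A or T before them and A or G after them, was searched on both strands within the 250 bases before the start. It was in 26.5% of all 32851 promoters and in 3 of the 9 windows, those of Il1rl1 and Ccr8. The upstream Il1rl1 window held 5 matches, starting 217, 141, 110, 80 and 54 bases before the start, and 0.0426% of all promoters held at least 5. The second Il1rl1 window, inside the gene, held 1 match and the Ccr8 window held 1. A STAT motif, TTCNNNGAA stood in 7.02% of all promoters and in 0 of the 9. A match is a description of letters and not of binding, by GATA3 or by another GATA factor. Gata2 had 152 counts in Ctrl, 177 in TP5, 183 in sFD17 and 346 in FR17, more than Gata3 in each. The windows are given 5′ to 3′ on the gene's strand with the GATA matches in capitals, Tnfsf11 being shown as the gene with the largest ratio and no match. The upstream Il1rl1 window is chr1:40429320-40429569 on the plus strand, the second is chr1:40439379-40439628 on the plus strand, Ccr8 is chr9:120091883-120092132 on the plus strand and Tnfsf11 is chr14:78308044-78308293 on the minus strand.
Il1rl1 upstream: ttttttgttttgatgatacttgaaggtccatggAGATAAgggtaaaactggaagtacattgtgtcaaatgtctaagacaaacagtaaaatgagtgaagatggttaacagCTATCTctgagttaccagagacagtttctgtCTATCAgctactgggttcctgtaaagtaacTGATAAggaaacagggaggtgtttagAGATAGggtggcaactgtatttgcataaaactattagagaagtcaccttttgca
Il1rl1 second: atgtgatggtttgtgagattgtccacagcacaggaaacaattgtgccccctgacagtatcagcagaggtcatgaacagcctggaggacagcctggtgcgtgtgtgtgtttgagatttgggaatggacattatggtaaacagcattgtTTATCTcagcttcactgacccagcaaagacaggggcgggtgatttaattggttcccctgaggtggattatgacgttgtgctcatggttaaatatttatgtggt
Ccr8: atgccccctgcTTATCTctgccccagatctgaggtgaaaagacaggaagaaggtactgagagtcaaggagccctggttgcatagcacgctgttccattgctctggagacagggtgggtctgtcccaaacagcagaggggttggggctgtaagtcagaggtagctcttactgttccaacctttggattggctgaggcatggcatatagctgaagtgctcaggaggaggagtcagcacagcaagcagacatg
Tnfsf11: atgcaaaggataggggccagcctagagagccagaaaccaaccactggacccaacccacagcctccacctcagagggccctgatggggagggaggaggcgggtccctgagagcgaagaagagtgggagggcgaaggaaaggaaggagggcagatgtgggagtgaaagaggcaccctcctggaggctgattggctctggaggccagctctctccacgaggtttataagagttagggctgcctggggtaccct

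Sequencing gave 15543071 to 19638228 counts per library. Counts were divided by the library size times edgeR's TMM factor, 0.849 to 1.17, to give counts-per-million values (CPM), and each value carries a 95% interval of counting error alone. All 10 genes were among the 16369 tested, which reached 10 counts in 1 library or more, and 9 reached 10 in every library, Tnfsf11 having 5 in Ctrl. The counts are low: the mean over the 4 libraries ran from 28.25 to 561.75 between the genes. In bulk RNA, more cells of a type and more RNA per cell cannot be told apart. The markers of the sort were detected in every library, with 6430, 6497, 5711 and 6924 counts of Itgam (CD11b) in Ctrl, TP5, sFD17 and FR17, and 1234, 1716, 1468 and 2081 of Ly6g. Scaled, Itgam was at 381, 370, 433 and 302 CPM, lowest in FR17, and Ly6g at 73.1, 97.8, 111 and 90.7, highest in sFD17. Markers of cells outside the gate were also present, C1qa of macrophages at 726, 409, 215 and 896 CPM and Ighm of B cells at 255, 340, 285 and 287.

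The label type 2 lymphoid describes what the genes are known for, and not which cells the RNA came from. Cd3e and Foxp3, far higher in FR17, are not particular to type 2 cells. Cd3e, a T cell receptor chain, had 31 counts in Ctrl, 37 in TP5, 25 in sFD17 and 153 in FR17. Foxp3, the regulatory T cell factor, had 10, 8, 7 and 53. The type 2 cytokines themselves were scarce: Il4 had 20 counts in Ctrl, 52 in TP5, 23 in sFD17 and 45 in FR17, Il13 had 5, 24, 30 and 14, Il5 had 2, 7, 3 and 2, and Il9 had 0 in each library. Rora, a factor that ILC2 need, had 206, 196, 110 and 315 counts, or 12.2, 11.2, 8.33 and 13.7 CPM, and Il7r, the IL-7 receptor of T cells and innate lymphoid cells, had 294, 414, 134 and 568, or 17.4, 23.6, 10.2 and 24.7 CPM. FR17 was thus not the library with the most counts of Il4, Il5 or Il13, and Il1rl1 was highest in TP5.

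**Figure D1:**
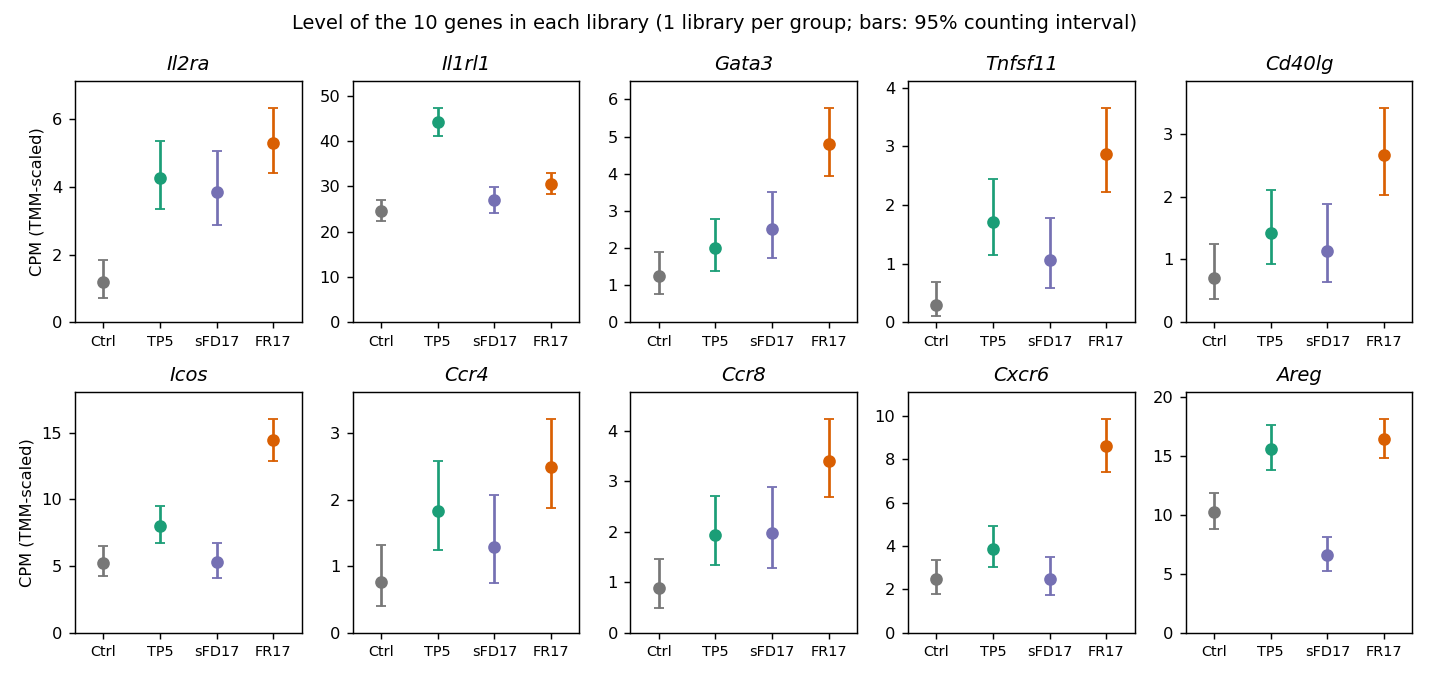
Level of each of the 10 genes (TMM-scaled CPM, y axis from 0) in the Ctrl, TP5, sFD17 and FR17 libraries; points are single libraries and bars the 95% counting interval. FR17 is the highest library for 9 genes, TP5 for Il1rl1 at 44.1 CPM, and sFD17 is the lowest for Areg at 6.59 CPM.

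Il2ra, the alpha chain of the IL-2 receptor, had 20 counts in Ctrl, 75 in TP5, 51 in sFD17 and 122 in FR17, which is 1.18 CPM (0.723 to 1.83), 4.28 (3.36 to 5.36), 3.86 (2.88 to 5.08) and 5.31 (4.41 to 6.35). All 3 peptide libraries lay apart from Ctrl and overlapped one another in their intervals. The FR17 ratio to Ctrl was 4.49 (2.78 to 7.61), beside 3.61 (2.18 to 6.25) for TP5 and 3.26 (1.91 to 5.78) for sFD17. Il2ra did not separate FR17 from TP5, with a ratio of 1.24 (0.925 to 1.68), or from sFD17, with 1.38 (0.984 to 1.95).

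Il1rl1 encodes ST2, the receptor of the alarmin IL-33. It was the most counted of the 10, with 415 counts in Ctrl, 774 in TP5, 355 in sFD17 and 703 in FR17, or 24.6 CPM, 44.1, 26.9 and 30.6. TP5 stood alone above the rest. The TP5 ratio to Ctrl was 1.80 (1.59 to 2.03), while that of FR17 was 1.25 (1.10 to 1.41) and that of sFD17 1.09 (0.948 to 1.26). FR17 was below TP5, at a ratio of 0.694 (0.626 to 0.770), so the name of a gene raised by FR17 describes Il1rl1 poorly.

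Gata3 had 21 counts in Ctrl, 35 in TP5, 33 in sFD17 and 110 in FR17, giving 1.24 CPM (0.770 to 1.90), 2.00 (1.39 to 2.77), 2.50 (1.72 to 3.51) and 4.79 (3.94 to 5.78). FR17 was the one library above all others for this factor, and the intervals of TP5 and sFD17 overlapped each other and that of Ctrl. The ratio to Ctrl was 1.60 (0.909 to 2.90) for TP5 and 2.01 (1.13 to 3.66) for sFD17. FR17 exceeded Ctrl 3.85-fold (2.40 to 6.47), TP5 2.40-fold (1.63 to 3.62) and sFD17 1.92-fold (1.29 to 2.92). The gene shares 77 exon bases with 9230102O04Rik on its own strand and 155 with Gm13256 on the other, in GENCODE M21, so some of its reads may belong to either. None of the other 9 genes shares exon bases with another.

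Tnfsf11 encodes RANKL, a TNF family ligand of T cells and innate lymphoid cells. Its counts were 5 in Ctrl, 30 in TP5, 14 in sFD17 and 66 in FR17, or 0.296 CPM (0.0961 to 0.691), 1.71 (1.15 to 2.44), 1.06 (0.580 to 1.78) and 2.88 (2.22 to 3.66). The 5 control counts make each ratio to Ctrl wide, at 9.71 (3.96 to 30.9) for FR17, 5.78 (2.22 to 19.1) for TP5 and 3.58 (1.22 to 12.7) for sFD17. FR17 exceeded TP5 1.68-fold (1.08 to 2.68) and sFD17 2.71-fold (1.51 to 5.23).

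Cd40lg, the CD40 ligand of helper T cells, had 12 counts in Ctrl, 25 in TP5, 15 in sFD17 and 61 in FR17, that is 0.710 CPM, 1.43, 1.14 and 2.66. Only the interval of FR17 lay clear of that of Ctrl, and those of Ctrl, TP5 and sFD17 overlapped. The FR17 ratio was 3.74 (1.99 to 7.63) to Ctrl, 1.86 (1.15 to 3.10) to TP5 and 2.34 (1.31 to 4.43) to sFD17. That to Ctrl was above those of Cxcr6 and Ccr4, which the choice of genes names among the highest.

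Icos, a costimulatory receptor of activated T cells and ILC2, had 89 counts in Ctrl, 141 in TP5, 70 in sFD17 and 331 in FR17. Scaled levels were 5.27 CPM (4.23 to 6.48), 8.04 (6.77 to 9.48), 5.30 (4.13 to 6.70) and 14.4 (12.9 to 16.1), with FR17 highest, TP5 next and sFD17 at the level of Ctrl. The FR17 ratio to Ctrl was 2.74 (2.16 to 3.50), beside 1.53 (1.16 to 2.01) for TP5 and 1.01 (0.725 to 1.39) for sFD17. FR17 exceeded TP5 1.79-fold (1.47 to 2.20).

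FR17 was the highest library for all 3 chemokine receptors. Ccr4, a receptor of CCL17 and CCL22, had 13 counts in Ctrl, 32 in TP5, 17 in sFD17 and 57 in FR17, or 0.770, 1.82, 1.29 and 2.48 CPM. Ccr8, which binds CCL1 and CCL8, had 15, 34, 26 and 78 counts, or 0.888, 1.94, 1.97 and 3.40 CPM. Cxcr6, the receptor of CXCL16 that holds lymphocytes in tissue, had 42, 68, 33 and 197 counts, or 2.49, 3.88, 2.50 and 8.58 CPM. Cxcr6 in sFD17 was at the level of Ctrl, with a ratio of 1.01 (0.618 to 1.63), and Ccr8 in sFD17 was 2.22-fold (1.13 to 4.51) above it, near its 2.18-fold (1.16 to 4.31) in TP5, though the intervals of the sFD17 ratios of Cxcr6 and Ccr8 overlapped. Scaled by library size alone, the sFD17 ratios of Cxcr6, Icos and Il1rl1 to Ctrl lay below 1. FR17 exceeded TP5 2.21-fold (1.67 to 2.96) for Cxcr6, 1.75-fold (1.16 to 2.71) for Ccr8 and 1.36-fold (0.868 to 2.17) for Ccr4, where the interval held 1.

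Areg had 173 counts in Ctrl, 274 in TP5, 87 in sFD17 and 377 in FR17. Scaled to 15.6 CPM (13.8 to 17.6) in TP5 and 16.4 (14.8 to 18.2) in FR17 the growth factor gave a ratio of FR17 to TP5 of 1.05, with an interval of 0.897 to 1.23. Ctrl had 10.2 CPM (8.77 to 11.9) and sFD17 6.59 (5.28 to 8.13). With TMM scaling Areg was the 1 gene of the 10 lower in sFD17 than in Ctrl, at a ratio of 0.644 (0.492 to 0.837), and TP5 exceeded sFD17 2.37-fold (1.86 to 3.05).

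**Figure D2:**
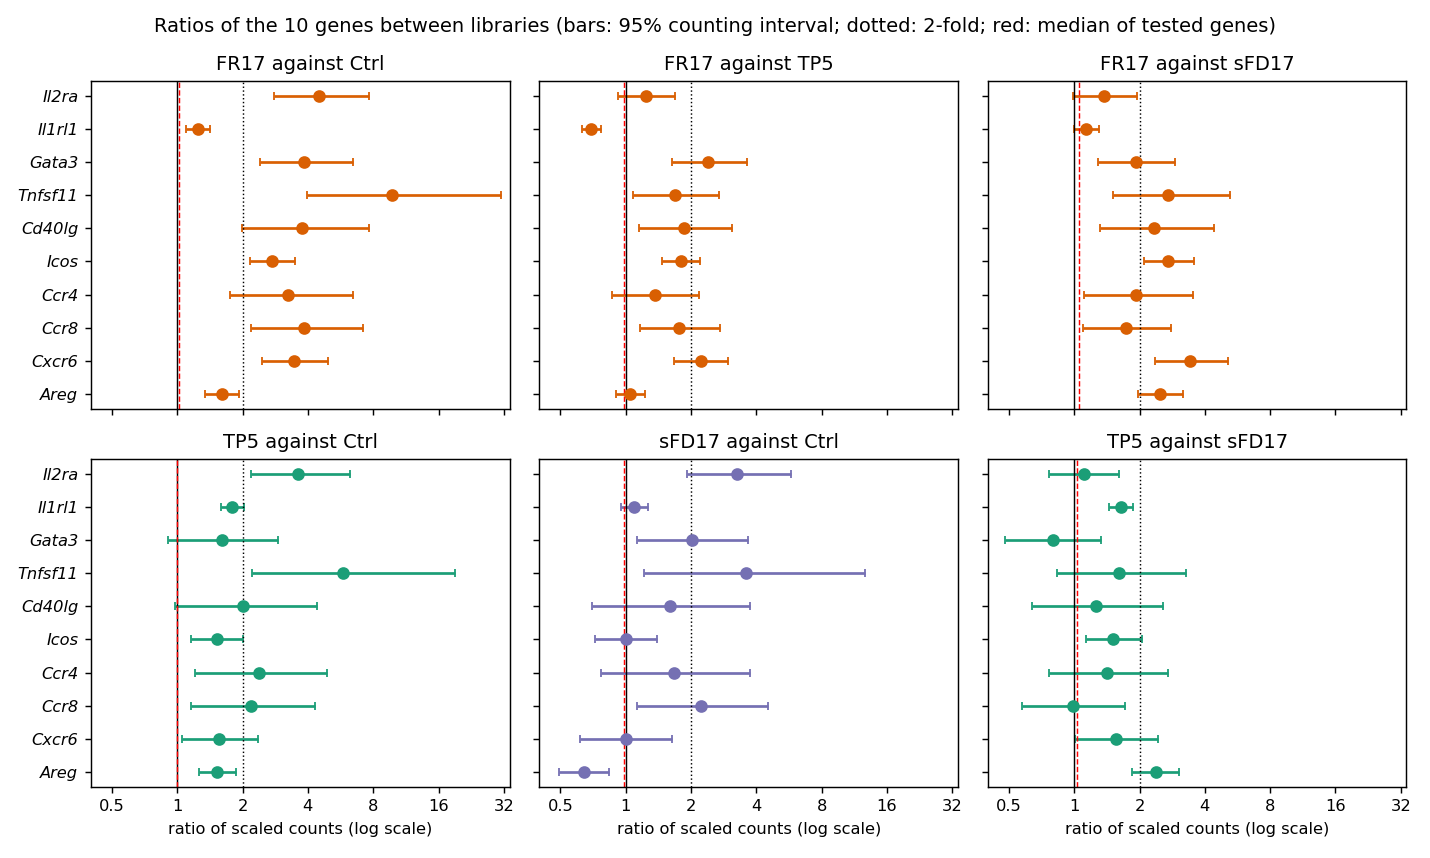
Ratio of scaled counts (x axis, log scale) of the 10 genes in each of the 6 pairs of libraries, with bars for the 95% counting interval, a dotted line at 2-fold and a red line at the median of the tested genes. Against Ctrl the FR17 ratios run from 1.25 to 9.71 and the TP5 ratios from 1.53 to 5.78, and in TP5 against sFD17 most intervals hold 1.

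In FR17 against Ctrl, the contrast that chose them, 8 of the 10 genes were at least 2-fold higher, where 5.07% of all tested genes were, and 0 of 10 were at least 2-fold lower, where 4.55% were. Areg at 1.60 and Il1rl1 at 1.25 were the others. The median ratio of the 10 was 3.60, beside 1.02 for all tested genes. In TP5 against Ctrl, 5 of 10 were at least 2-fold higher (4.07% of all tested) and 0 lower (6.15%), with a median of 1.90 beside 1.00. Every one of the 10 stood above 1 there, and the intervals of 8 left out 1, those of Gata3 and Cd40lg being the exceptions. In sFD17 against Ctrl, 4 of 10 were at least 2-fold higher (6.24%) and 0 lower (7.24%), with a median of 1.64 beside 0.982, and 5 intervals held 1. All 4 calls in sFD17 were among the 6 genes chosen for their FR17 ratio, with a median of 2.11, and the other 4 genes had 0 calls and a median of 1.05. In TP5 the calls were 4 of the 6 and 1 of the 4. The 3 contrasts share the control library, so a low control count raises the ratio in each, and the TP5 and sFD17 ratios are not independent of the choice of the genes. Among the 7760 genes whose mean count was in the range of the 10, 2.19% were at least 2-fold higher in FR17, 2.09% in TP5 and 3.03% in sFD17.

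Between peptides at the same dose and days, FR17 differs from sFD17 in having the TP5 sequence in place of the scrambled one, and from TP5 in having the assembling part. In FR17 against sFD17, 5 of 10 genes were at least 2-fold higher, where 12.5% of all tested genes were, and 9 intervals lay above 1, that of Il1rl1 barely so with a lower bound of 1.00, Il2ra being the exception. In FR17 against TP5, 2 of 10, Gata3 and Cxcr6, were at least 2-fold higher (8.24%), 6 intervals lay above 1, those of Il2ra, Ccr4 and Areg held 1, and Il1rl1 lay below. Both contrasts use the FR17 library that chose the genes. Markers of some other cells were higher in FR17 in the same contrasts and those of others lower. Against sFD17, 13 of 19 T cell markers (median 2.81), 10 of 15 NK and cytotoxic markers (2.99) and 7 of 10 macrophage markers (3.88) were at least 2-fold higher, beside a median of 2.13 for the 10 genes. Against TP5 it was 11 of 19 T cell (2.12), 13 of 15 NK and cytotoxic (4.10) and 4 of 10 macrophage markers (1.89), beside 1.72. Of 13 tested ILC2 and Th2 markers, 5 were at least 2-fold higher against sFD17 (1.55) and 2 against TP5 (1.08). In each of these contrasts 1 of the 13 was at least 2-fold lower. Neutrophil markers were lower in FR17, 13 of 13 against TP5 (0.814) and 12 of 13 against sFD17 (0.697). Dendritic cell markers were lower against TP5, 9 of 11 (0.785), and higher against sFD17, 9 of 11 (1.27), and B cell markers likewise, 7 of 10 lower (0.867) and 8 of 10 higher (1.11). The part of these cells in the levels of the 10 genes was not tested. By library size alone the counts were 8 of 10 against sFD17, where the share of all tested genes was then 27.6%, 5 of 10 against TP5 (11.2%), and 2 of 10 for sFD17 against Ctrl (4.28%). TP5 against sFD17 uses neither library of that choice: 1 of 10, Areg, was at least 2-fold higher (6.48%), the median ratio was 1.47 beside 1.03, 4 intervals (Cxcr6, Icos, Il1rl1 and Areg) lay above 1 and 6 held 1. TP5 lay below sFD17 for Gata3, at 0.798 (0.482 to 1.32), and for Ccr8, at 0.984 (0.573 to 1.71), where library size alone put TP5 above. An interval that holds 1 does not show that 2 peptides act alike.

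FR17 was the highest library for 9 of the genes. Of these, 6 had TP5 next, then sFD17 and Ctrl last, Gata3 and Ccr8 had sFD17 above TP5 within their intervals, and Areg had sFD17 last. Per length of the gene, Areg was the highest in every library, at 5.43 to 13.5 RPKM (CPM per kilobase of exons), and in FR17 the next were Cxcr6 at 4.444 and Il1rl1 at 4.442 RPKM. Il2ra at 0.931 and Ccr4 at 0.803 RPKM were the lowest 2 in FR17.

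**Figure D3:**
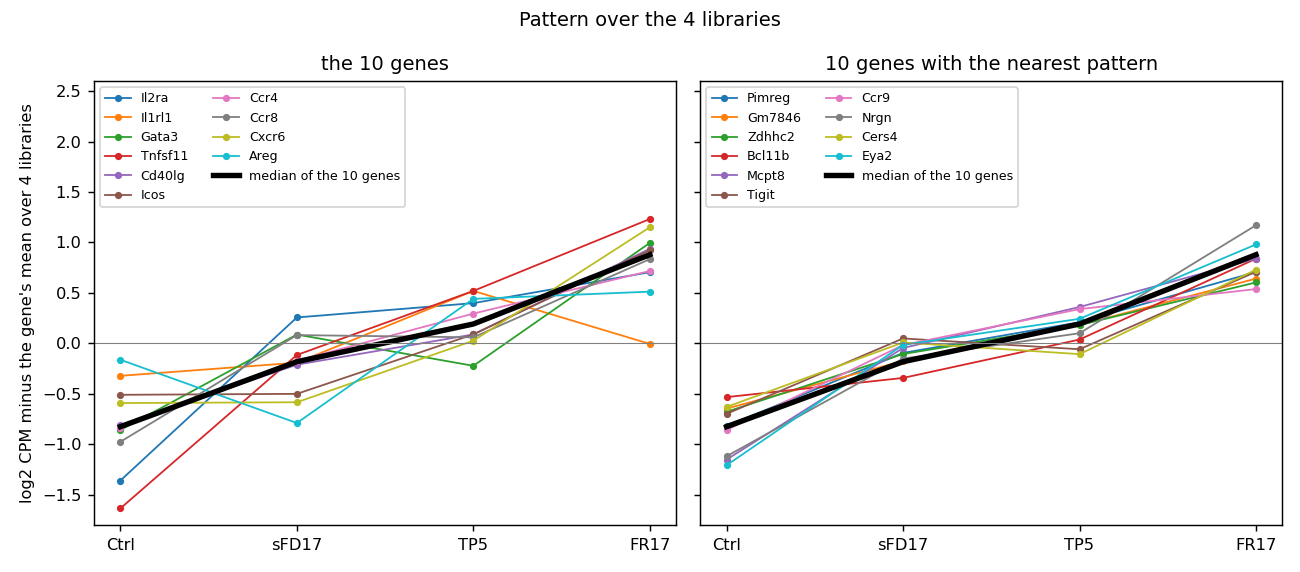
Log2 CPM of each gene minus its own mean over the 4 libraries (y axis), for the 10 genes at left and the 10 other genes with the nearest pattern at right; the lines join the libraries for reading only, and black is the median of the 10. The median runs from -0.83 in Ctrl through -0.18 in sFD17 and 0.19 in TP5 to 0.88 in FR17, and Il1rl1 and Areg leave it most.

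The genes whose pattern was nearest to the median of the 10, by the root mean square difference of centred log2 CPM over the 4 libraries, were Pimreg, Gm7846, Zdhhc2, Bcl11b, Mcpt8, Tigit, Ccr9, Nrgn, Cers4 and Eya2, from 0.0966 for Pimreg to 0.216 for Eya2 among 12620 genes with at least 100 summed counts. With 4 points a gene this is a description. Bcl11b, a T cell and ILC2 transcription factor, had 48 counts in Ctrl, 75 in TP5, 43 in sFD17 and 173 in FR17. Tigit, an inhibitory receptor of T and NK cells, had 16, 27, 22 and 62, and Mcpt8, a protease of basophils, had 18, 57, 32 and 105.

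Of 19 ligands and partner chains of the 10 genes, 16 could be tested. In FR17 against Ctrl 1 of them was at least 2-fold higher, 1 at least 2-fold lower and the median ratio was 1.04, beside shares of 5.07% and 4.55% and a median of 1.02 for all tested genes. Il2rb, the IL-2 receptor beta chain that NK cells also carry, had 324 counts in Ctrl, 317 in TP5, 246 in sFD17 and 1125 in FR17, a ratio of 2.55 (2.26 to 2.90) in FR17. Il2rg, the common gamma chain, had 872, 919, 1518 and 1194 counts, or 51.6, 52.4, 115 and 52.0 CPM, and stood 2.23-fold (2.05 to 2.42) above Ctrl in sFD17. Il2 itself had 2, 2, 0 and 6 counts. Il1rap, the chain that ST2 needs to signal, was lowest in FR17, with 4661 counts in Ctrl, 3085 in TP5, 4659 in sFD17 and 2374 in FR17, a ratio of 0.375 (0.357 to 0.394) in FR17. Il33 had 17, 8, 12 and 26 counts, or 1.01, 0.456, 0.909 and 1.13 CPM.

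Of the ligands of CCR4, Ccl17 had 353 counts in Ctrl, 839 in TP5, 277 in sFD17 and 903 in FR17, while Ccl22 had 777, 1541, 656 and 1558. TP5 exceeded Ctrl 2.29-fold for Ccl17 and 1.91-fold for Ccl22, and FR17 exceeded it 1.88-fold and 1.48-fold, while sFD17 was at 1.00 and 1.08. Ccl8, a ligand of CCR8, had 1559, 500, 236 and 2698 counts, and Ccl1, the other, had 0, 3, 0 and 8. On the CPM scale, in the order Ctrl, TP5, sFD17 and FR17, Ccl8 was at 92.3, 28.5, 17.9 and 118. Cxcl16, the ligand of CXCR6, was at 104, 93.2, 63.0 and 107 CPM, with FR17 near Ctrl. Icosl, the ICOS ligand, was at 72.3, 70.1, 89.3 and 64.5 CPM, lowest in FR17. Cd40 was at 17.2, 26.5, 21.8 and 20.8 CPM, highest in TP5. Tnfrsf11a (RANK) was at 16.2, 11.6, 12.7 and 17.0 CPM, and its decoy Tnfrsf11b had 0, 2, 1 and 3 counts. Egfr, the receptor of amphiregulin, was at 4.44, 1.71, 1.82 and 5.71 CPM, lower in TP5 and sFD17.

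Other genes of the same families were set beside the 10. Of all tested genes, 5.07% were at least 2-fold higher in FR17 than in Ctrl, 4.55% were lower, and 4.07% were higher in TP5. Of 18 other chemokine receptors, 17 were tested in FR17 against Ctrl and 1, Ccr9, was at least 2-fold higher, at 2.78 (1.72 to 4.67), while Cxcr1 at 0.451 was at least 2-fold lower. Of 15 tested genes of costimulation and the TNF family, 5 were at least 2-fold higher, among them Fasl at 2.86, Cd27 at 2.26 and Tnfrsf4 (OX40) at 2.13. Among 20 lymphoid transcription factors, 6 were, among them Foxp3 at 3.90 and Bcl11b at 2.65. Of 10 tested type 2 cytokines and their receptors, 1 was at least 2-fold higher in FR17, and 3 were in TP5. That in FR17 was Il13, at 2.06 with an interval of 0.701 to 7.31 from 14 and 5 counts. Of the EGF family ligands besides Areg, Nrg1 included, 5 were tested in FR17 against Ctrl. Of these 1 was higher, 4 were lower and 0 called, with a median ratio of 0.841, Hbegf being at 0.917. The higher one, Ereg (epiregulin), a neighbour of Areg on chromosome 5, had 131 counts in Ctrl, 110 in TP5, 11 in sFD17 and 272 in FR17, lowest in sFD17 like Areg.

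Markers of other cells moved with the 10 genes in FR17, where 5.07% of all tested genes were at least 2-fold higher than in Ctrl. All 19 T cell markers were above Ctrl there, 8 of them at least 2-fold, with a median ratio of 1.92, led by Trdc at 4.61, Cd3e at 3.63 and Trbc1 at 3.04. Their summed level was 2003 counts in Ctrl, 2024 in TP5, 1114 in sFD17 and 5066 in FR17, a scaled ratio of 1.86 in FR17. Of 15 NK and cytotoxic markers 14 were at least 2-fold higher, with a median of 3.12 and a summed ratio of 2.77, among them Xcl1, Prf1 (perforin) and Klrc1. Of 7 tested type 3 lymphoid markers 4 were, with a median of 2.21 and a summed ratio of 1.85. Of 9 tested regulatory T cell markers 5 were, with a median of 2.01 and a summed ratio of 1.87, and of 13 tested ILC2 and Th2 markers 4 were, with a median of 1.75 and a summed ratio of 1.14. The higher level of lymphoid markers in FR17 was thus not limited to those of type 2. Their part in the levels of the 10 genes was not tested.

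In the other peptide libraries no T cell marker was at least 2-fold above Ctrl in TP5 or sFD17, where 4.07% and 6.24% of all tested genes were. At least 2-fold lower were 1 in TP5 and 2 in sFD17, beside 6.15% and 7.24% of all tested genes. The T cell medians were 1.11 and 0.880 and the summed ratios 0.973 and 0.712. Of 9 regulatory T cell markers, 8 were higher than in Ctrl in TP5, 2 of them at least 2-fold, with a median of 1.29 and a summed ratio of 1.63. Those 2 were Itgae, with 87 counts in Ctrl and 225 in TP5, and Lrrc32, with 86 and 188. The 1 lower was Foxp3, the defining factor, at 0.770 from 8 counts against 10. In sFD17 6 of these 9 were higher, 0 of them at least 2-fold, with a median of 1.51 and a summed ratio of 1.34. Foxp3 was again lower, at 0.896 from 7 counts. The 7 type 3 lymphoid markers had medians of 1.22 in TP5 and 0.896 in sFD17 and summed ratios of 1.41 and 1.03. Without Blk, the most abundant gene of the list, the summed ratios were 1.25 and 0.872. The 10 genes were chosen with the Ctrl library, so nothing is read from the distance between their ratios to Ctrl and those of these markers. In TP5 against sFD17 the T cell markers had a median of 1.20, and 1 of the 10 genes lay above the highest of them, at 2.17. Cd4, also a gene of myeloid cells, had 398 counts in Ctrl, 192 in TP5, 93 in sFD17 and 760 in FR17, with ratios to Ctrl of 0.465 for TP5, 0.299 for sFD17 and 1.41 for FR17. NK and cytotoxic markers had a median of 0.793 in TP5 and 1.13 in sFD17. Among ILC2 and Th2 markers, 3 of 13 were at least 2-fold higher in TP5, Il4 at 2.50 (1.47 to 4.43), Il13 at 4.62 (1.73 to 15.5) and Il9r at 2.94 (2.03 to 4.33). In sFD17 it was 1, Il13 at 7.68 (2.95 to 25.4), from 30 counts against 5.

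Markers of the granulocytes that also carry ST2 lay on both sides of Ctrl in TP5 and sFD17. In FR17, 10 of 11 basophil and mast cell markers were above it, Hdc being the exception at 0.533, and 5 of 5 eosinophil markers. Of 11 basophil and mast cell markers, 6 were at least 2-fold higher than Ctrl in FR17, 3 in TP5 and 3 in sFD17. The shares of all tested genes were 5.07%, 4.07% and 6.24%. The medians of the list were 2.07 in FR17, 1.12 in TP5 and 1.54 in sFD17. At least 2-fold lower were 0, 2 and 2, beside 4.55%, 6.15% and 7.24% of all tested genes. Among the lower were the mast cell proteases Cma1, at 0.201 in TP5, and Tpsb2, at 0.355 in TP5 and 0.337 in sFD17. Prss34, a basophil protease, had 18 counts in Ctrl, 58 in TP5, 62 in sFD17 and 209 in FR17. Summed, the list lay the other way, at 0.545 in FR17, since Hdc took 61509 of its 62030 counts in Ctrl, and was 1.94 without it. Of 5 eosinophil markers 2 were at least 2-fold higher in each peptide library, and their summed ratio was 1.15 in FR17, 0.818 in TP5 and 0.645 in sFD17. Prg2, an eosinophil granule protein also made by basophils, had 19, 72, 32 and 158 counts. The 13 neutrophil markers had median ratios of 1.09 in TP5, 1.35 in sFD17 and 0.947 in FR17, B cell markers 1.32, 1.16 and 1.33, dendritic cell markers 1.42, 1.10 and 1.35, lung structural markers 0.598, 0.947 and 1.16, and macrophage markers 0.616, 0.338 and 1.17. The part of any of these cells in the 10 genes was not tested.

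**Figure D4:**
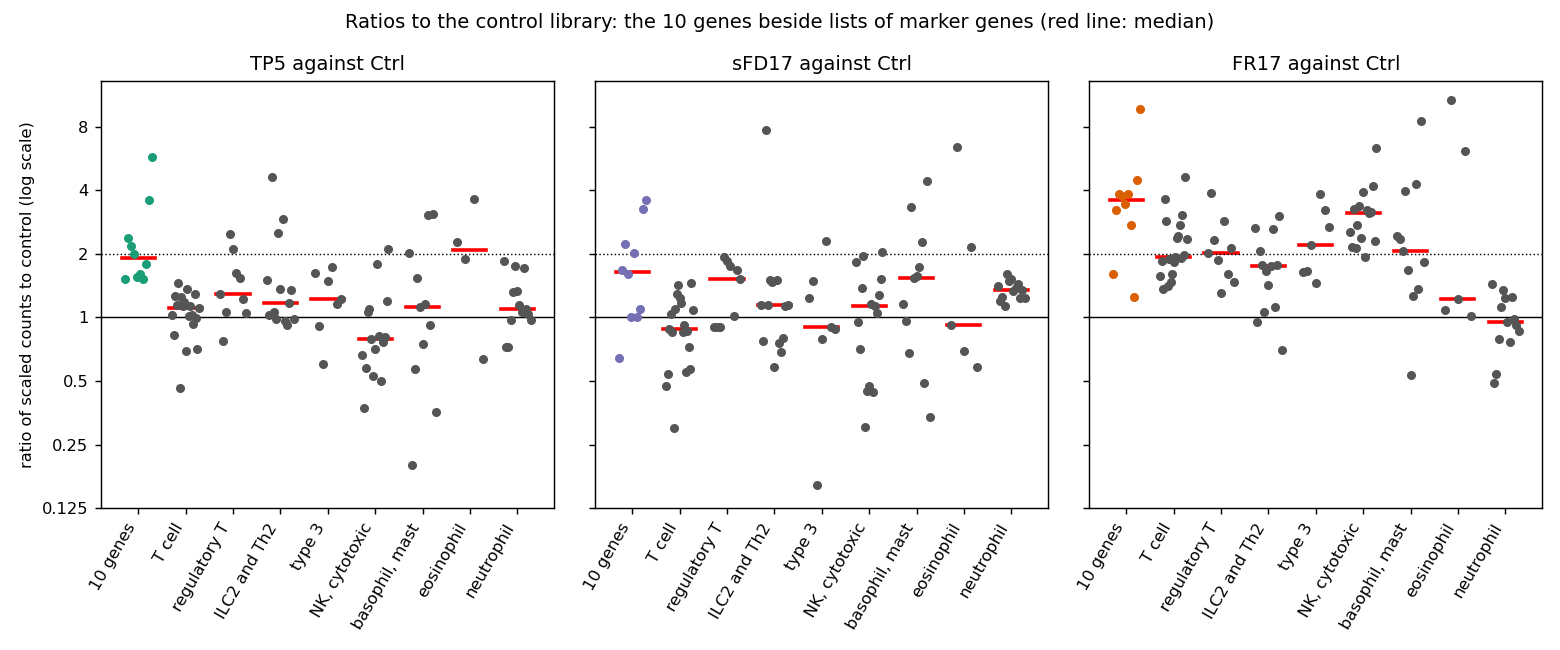
Ratio of scaled counts to Ctrl (y axis, log scale) in TP5, sFD17 and FR17 for the 10 genes (coloured) and for the tested genes of 8 marker lists (grey), each point 1 gene and each red line a median. The T cell markers have medians of 1.11, 0.880 and 1.92, and the 10 genes, chosen on the ratio of FR17 to Ctrl, have 1.90, 1.64 and 3.60, a distance from which nothing is read.

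The 10 genes lie on chromosomes 1, 2, 5, 9, 14 and X of GRCm38.p6, with start and end the same in the files and in GENCODE M21: Il2ra at chr2:11642807-11693193 (plus strand), Gata3 at chr2:9857078-9890034 (minus strand), Tnfsf11 at chr14:78277445-78308043 (minus strand), Ccr8 at chr9:120092114-120094906 (plus strand), Ccr4 at chr9:114490316-114504916 (minus strand), Cxcr6 at chr9:123806475-123811760 (plus strand), Icos at chr1:60977927-61000320 (plus strand), Il1rl1 at chr1:40429570-40465415 (plus strand), Areg at chr5:91139599-91148432 (plus strand) and Cd40lg at chrX:57212143-57224042 (plus strand). Ccr4, Ccr8 and Cxcr6 share chromosome 9. The nearest tested protein-coding gene on each side was taken, 20 in all. In FR17 against Ctrl 3 of the 20 were at least 2-fold higher, where 5.07% of all tested genes were, and the median was 1.08. The 3 were Ccr9, 22.145 kb from Cxcr6, Ctla4, 62.095 kb from Icos, and Parm1, 369.183 kb from Areg. Il18r1, 0.137 kb from Il1rl1, had 287, 293, 336 and 415 counts in Ctrl, TP5, sFD17 and FR17, with a TP5 ratio to Ctrl of 0.983. Il15ra, 12.097 kb from Il2ra, had 151, 79, 213 and 192, with ratios to Ctrl of 0.504 for TP5, 1.81 for sFD17 and 0.936 for FR17.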

How the data were processed

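For 4 mRNA libraries the authors deposited raw, unnormalized counts of reads on each gene. Each group is 1 library, and 0 sample columns were left unmapped. The submitters' processing notes name HISAT2 2.0.5, StringTie 1.3.3b, featureCounts 1.5.0-p3, edgeR 3.18.1 and GRCm38.p6, with no role or order, and do not say whether strand was used in counting. From the counts, TMM factors were computed with edgeR 4.0.16 (R 4.3.3) on the genes that reached 10 counts in 1 library or more, with full library sizes. Ratios of scaled counts were given with exact conditional binomial intervals and CPM with exact Poisson intervals, at 95%, and both cover counting error only (scipy 1.17.1, pandas 2.3.3, numpy 2.4.6). RPKM used the deposited gene length. A ratio against 0 counts used a floor of 3 counts, 0.131 to 0.227 CPM. With 1 library per group no test was made, and called means at least 2-fold. The procedure was tested on simulated data.

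The 10 genes, the 18 gene lists and the comparisons were chosen with earlier results of these data known. In each list up to 3 genes were named, those with the largest FR17 to Ctrl ratio in either direction among genes reaching 30 counts in FR17 or Ctrl. Defining markers, ligands and partners, and the 10 genes of nearest pattern were named too. Some genes that this rule selects are left out of the text. Neighbouring genes, promoter motifs, and Il9, Il9r, Prss34, Hdc, Ighm, Cma1, Tpsb2, Il15ra and Il18r1 were added after their values were seen. Alternatives were DESeq2 1.42.0 size factors, library size alone, other filters, a prior count of 2, a stricter and a looser fold rule, and lists without their most abundant gene.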

Additional observations from a re-analysis of the deposited data

How the results depend on the processing

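No paired analysis was possible because each group has 1 library. With library size alone in place of TMM, the median log2 ratio of all tested genes moved to 0.27 in FR17 against Ctrl, 0.17 in FR17 against TP5, 0.54 in FR17 against sFD17, -0.24 in sFD17 against Ctrl and 0.31 in TP5 against sFD17. The share of higher among all genes called at 2-fold then went from 52.7% to 75.9% in FR17 against Ctrl, 67.5% to 80.8% in FR17 against TP5, 52.0% to 83.7% in FR17 against sFD17, 46.3% to 28.3% in sFD17 against Ctrl and 45.4% to 69.1% in TP5 against sFD17, and changed by less than 10 points in TP5 against Ctrl. Of the 10 genes, 5 instead of 2 were then at least 2-fold higher in FR17 against TP5 (11.2% of all tested genes, from 8.24%), 8 instead of 5 in FR17 against sFD17 (27.6%, from 12.5%), and 2 instead of 4 in sFD17 against Ctrl (4.28%, from 6.24%). Of 60 gene ratios, 53 stayed in their counting intervals, 7 did not, and 4 changed sides of 1, those of Cxcr6, Icos and Il1rl1 in sFD17 against Ctrl and of Ccr8 in TP5 against sFD17. With DESeq2 size factors or a prior count of 2 all 60 stayed. With a prior count of 2, however, Cd40lg in TP5 against Ctrl and Gata3 in sFD17 against Ctrl went below 2-fold (log2 ratios of 0.90 and 0.95). That left 4 genes in TP5 against Ctrl (3.2% of all tested genes) and 3 in sFD17 against Ctrl (5.32%). With no filter on low counts 7 instead of 5 were at least 2-fold higher in FR17 against sFD17 (11.2% of 26562 genes, from 12.5%). In sFD17 against Ctrl it was 3 instead of 4 (5.91%, from 6.24%). With a 1.5-fold rule 6 of the 10 genes were higher in FR17 against TP5 (15.7% of all tested genes), 8 in FR17 against sFD17 (25.8%), 10 in TP5 against Ctrl (9.79%) and 5 in TP5 against sFD17 (17.1%).

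The count of all genes at least 2-fold higher, an alternative chosen after seeing the data, became 1351 in FR17 against Ctrl, 4521 in FR17 against sFD17 and 1886 in TP5 against sFD17 by library size alone. With no filter, over 26562 genes, it was 1514 in FR17 against Ctrl (5.7%, with the filter 5.07%), 2157 in FR17 against TP5 (8.12%, 8.24%), 1105 in TP5 against Ctrl (4.16%, 4.07%) and 1570 in sFD17 against Ctrl (5.91%, 6.24%). With at least 10 counts in every library it was 204, 593 and 1151 in FR17 against Ctrl, TP5 and sFD17, 205 in TP5 against Ctrl, 457 in sFD17 against Ctrl and 421 in TP5 against sFD17. In FR17 against Ctrl this was 1.51% of 13466 tested genes, beside 5.07% of 16369, and the cause was not tested. By library size alone the summed FR17 to Ctrl ratios became 2.21 for T cell, 2.22 for regulatory T cell, 1.35 for ILC2 and Th2, 2.20 for type 3, 3.29 for NK, 0.646 for basophil and 1.36 for eosinophil markers. Without the most abundant gene, those of ILC2 and Th2, basophil and eosinophil markers were 1.33, 1.94 and 2.24. Low counts limit Tnfsf11, Cd40lg, Ccr4 and Ccr8 most.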
